A study of Rattus norvegicus with 18 samples.

Results

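The microRNAs rno-miR-17-5p, rno-miR-92a, rno-miR-93, rno-miR-25 and rno-miR-92b (miR-17-5p and so on hereafter) were followed through the development of the rat cortex. They are 5 of 781 named sequences that were looked for in 18 small RNA libraries, and each of the 5 was detected in all 18. They come from the miR-17-92 cluster or its paralog miR-106b-25, or share a seed with these, and their mature sequences are given by the primers of the study or, for miR-25, by its list of nucleotide changes. rno-miR-106b also meets these terms but was not among the 5 chosen, and it is given with the cluster mates. A read was counted for a miRNA when its sequence was identical over the common length, it began no more than 3 nt from the annotated start, and it ran no more than 3 nt beyond the annotated 3′ end. The animals were Sprague Dawley rats, with no treatment or allele named in the labels. The labels give forebrain as the tissue of E10 and E13, and somatosensory cortex as that of E17, P0, P3, P7, P14 and P28, whereas the methods describe the E10 and E13 tissue as whole cortex. By either account the change in the tissue taken between E13 and E17 cannot be told apart from stage. P0 had 2 tissue samples, each other stage had 1, and the 2 sequencing runs of a tissue sample are technical repeats. The number of animals behind a tissue sample is not given in the sources used here. The libraries held 4899010 to 16590379 clean reads.

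A microRNA is cut from a hairpin precursor as a short duplex, and the strand that is loaded into an Argonaute protein recognises target mRNAs mainly by its seed, the bases near its 5′ end. The miR-17-92 cluster is a polycistron that is active in dividing progenitor cells, where it is known to promote proliferation, and its paralogs arose by duplication. The miR-106b-25 cluster lies in an intron of Mcm7, which encodes a subunit of the helicase that unwinds DNA at replication origins. The miR-92b gene stands apart from these clusters but encodes the same seed as miR-92a and miR-25. In bulk tissue, fewer cells of a type and less RNA per cell cannot be told apart.

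The mature sequences, as RefSeq gives them for GRCr8, are shown because the 5 fall into 2 seed groups and because some differ at few bases. They are written 5′ to 3′ with the seed, bases 2 to 8, in capitals.
miR-17-5p: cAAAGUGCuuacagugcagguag
miR-93: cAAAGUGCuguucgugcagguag
miR-92a: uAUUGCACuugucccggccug
miR-92b: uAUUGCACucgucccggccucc
miR-25: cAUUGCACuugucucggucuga

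miR-17-5p and miR-93 shared the seed AAAGUGC and differed at 4 of their first 20 positions. miR-92a, miR-92b and miR-25 shared the seed AUUGCAC. Over the first 20 positions miR-92a differed from miR-92b at 1 position, position 10 from the 5′ end, and from miR-25 at 3, while miR-92b differed from miR-25 at 4. Every counted tag was at least 18 nt long and so covered position 10, and 0 reads counted for a member fitted another named sequence.

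The loci lie on 4 chromosomes of GRCr8. The mature miR-17-5p sequence is encoded at Mir17, chr15:98587861-98587883 on the plus strand, and again at Mir106a, chrX:137343615-137343637 on the minus strand. Likewise miR-92a is encoded at Mir92a1, chr15:98588602-98588622 on the plus strand, and at Mir92a2, chrX:137342945-137342965 on the minus strand. Reads of these 2 miRNAs therefore cannot be assigned to a locus. On the minus strand of chromosome 12, miR-93 (chr12:22156894-22156916) and miR-25 (chr12:22156652-22156673) lie within the span of Mcm7. The miR-92b sequence lies at chr2:176931663-176931684 on the minus strand, outside any other annotated gene. From the outermost mature ends, the miR-17-92 cluster spans 762 nt, the miR-106b-25 cluster 472 nt and the X cluster 850 nt.

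The runs of a tissue sample did not give equal levels, and this bears on every value below. Over 194 named sequences above 50 TPM, the share that differed by more than 1 log2 unit between the runs of 1 tissue sample lay between 29.4% at P3 and 69.6% at P0 replicate 1. In 6 libraries of run 1 (E13, E17, P0 replicate 1, P7, P14 and P28), the median share of reads that ended before the annotated 3′ end was 53.1% to 68.9% over 138 sequences outside the list. The same median was 39.3% to 50.6% in 11 of the other libraries and 4.57% in run 2 of E10. The fits were repeated without the 6 libraries of run 1 and without run 2 of E10, and the levels of the 5 are given by run.

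In TPM, all 5 miRNAs were most abundant at E10 by the mean of both runs. For miR-17-5p this rested on run 2, since within run 1 its level was 892 TPM at E10 and 1639 TPM in P0 replicate 1. The other 4 were highest at E10 within each run. The level, in reads of tags seen in both runs per 1000000 clean reads (TPM, mean of both runs), was 27.5 times higher at E10 than at P28 for miR-17-5p, 32.3 times for miR-92a, 13.3 times for miR-92b, 47.0 times for miR-93 and 62.9 times for miR-25. These ratios differed by run except for miR-93 (47.4 in run 1 and 46.6 in run 2), and they were 64.1 and 19.8 for miR-92a and 7.50 and 21.7 for miR-92b. Scaled by the TMM factors of the fits below, the highest of which was that of E10, these ratios were smaller, at 14.9 for miR-17-5p, 17.5 for miR-92a, 7.17 for miR-92b, 25.4 for miR-93 and 34.0 for miR-25. On that scale E10 was not the highest stage for 2 of the 5, since miR-17-5p stood at 573 at E10 and 846 at E17, and miR-92a at 3445 at E10 and 3523 at E13. In TPM, the lowest stage mean was at P28 for miR-17-5p, miR-92a and miR-93, at P14 for miR-25 (68.3 TPM) and at P7 for miR-92b (186 TPM).

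**Figure D1:**
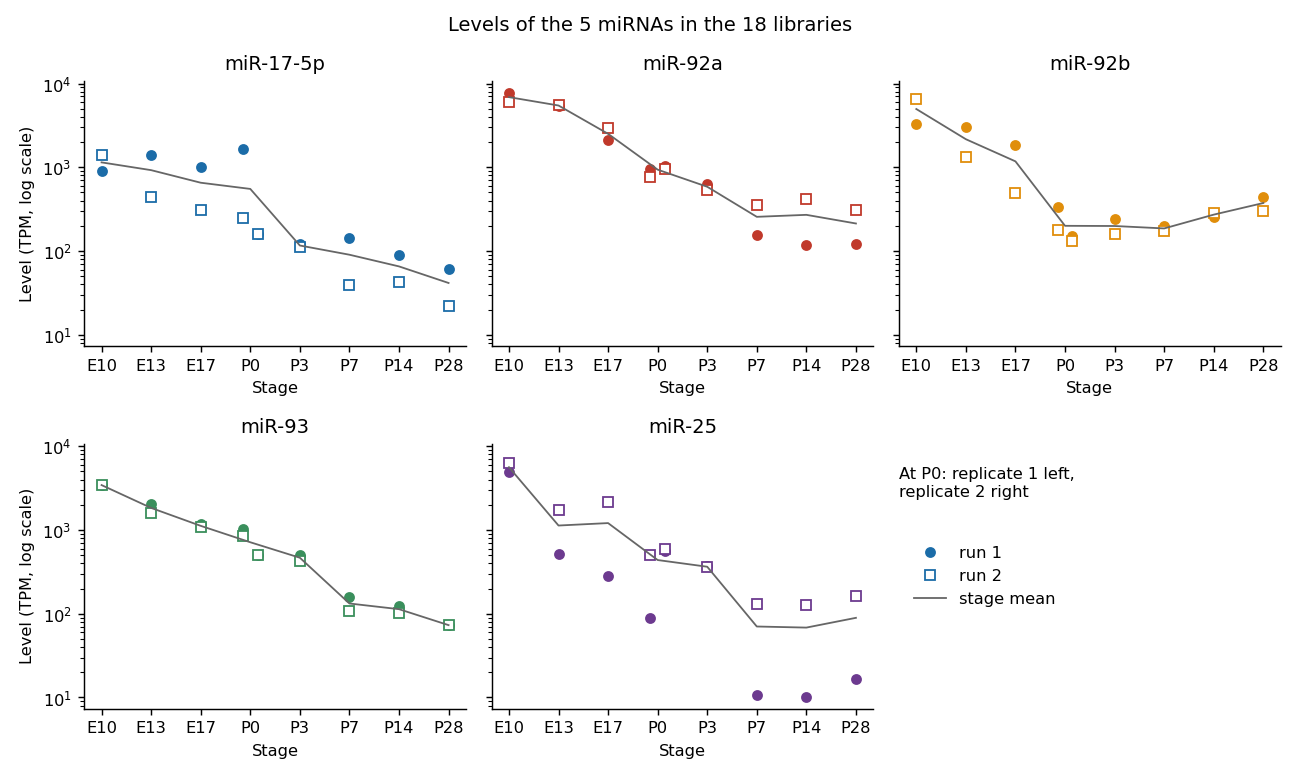
Level of each of the 5 miRNAs (TPM, log scale) by stage, with filled circles for run 1, open squares for run 2 and a grey line through the stage means. The levels of miR-93 nearly coincide between runs, and its stage means in TPM decline at every stage. miR-92b reaches its lowest mean, 186 TPM, at P7 and stands at 374 TPM at P28. The points of miR-25 separate by run.

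Of the miRNAs with the AAAGUGC seed, miR-93 gave the most even series. Its levels in run 1 and run 2 were 3469 and 3402 TPM at E10, 2053 and 1614 at E13, 1169 and 1071 at E17, 1024 and 836 in P0 replicate 1, 496 and 498 in P0 replicate 2, 503 and 429 at P3, 158 and 107 at P7, 125 and 102 at P14, and 73.2 and 73.0 at P28. The runs were never more than 1.47 times apart. Scaled by TMM factors, miR-93 did not decline at every stage, since it stood at 1182 at E13 and 1448 at E17. The ranges of the libraries did not overlap between E10, E13, E17 and P0, between P3 and P7, or between P14 and P28, but they did between P0 and P3 and between P7 and P14. At P0 the mean was 714 ± 306 TPM (SD, n = 2). For miR-93 at this stage, the study reported that its qPCR and its sequencing differed to a minor degree.

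miR-17-5p, the seed partner of miR-93 in the miR-17-92 cluster, was the least abundant of the 5 at E10. Run 1 and run 2 gave 892 and 1396 TPM at E10, 1403 and 444 at E13, 999 and 309 at E17, 1639 and 248 in P0 replicate 1, 160 and 159 in P0 replicate 2, 120 and 113 at P3, 141 and 39.4 at P7, 88.6 and 42.5 at P14, and 61.1 and 22.0 at P28. Run 1 was higher than run 2 in 8 of 9 tissue samples, by up to 6.62 times in P0 replicate 1. The mean at P0 was accordingly 552 ± 554 TPM (SD, n = 2), and of the neighbouring stages in order of level only P0 and P3 did not overlap. The ratio of E10 to P28 was 63.4 in run 2 and 14.6 in run 1.

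Of the miRNAs with the AUUGCAC seed, miR-92a was the most abundant in 14 of 18 libraries and miR-92b in 4. Its levels were 7688 and 6070 TPM at E10, 5366 and 5563 at E13, 2103 and 2916 at E17, 962 and 775 in P0 replicate 1, 1047 and 963 in P0 replicate 2, 636 and 535 at P3, 157 and 355 at P7, 118 and 423 at P14, and 120 and 307 at P28. The libraries of E10, E13, E17, P0 and P3 formed a series without overlap, whereas P7, P14 and P28 overlapped. The mean at P0 was 937 ± 96.2 TPM (SD, n = 2), the smallest relative spread of the 5 miRNAs in TPM. This did not hold with TMM factors, where the replicates of miR-92a stood at 915 and 1798. Those of miR-93 then stood at 979 and 889, and those of miR-92b at 273 and 252.

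The levels of miR-25 depended most on the run. Run 1 and run 2 gave 4867 and 6371 TPM at E10, 516 and 1744 at E13, 285 and 2131 at E17, 87.8 and 506 in P0 replicate 1, 568 and 589 in P0 replicate 2, 369 and 359 at P3, 10.7 and 130 at P7, 10.2 and 126 at P14, and 16.5 and 162 at P28. Run 2 exceeded run 1 by 3.38 to 12.4 times in the 6 tissue samples whose run 1 library stood apart, and the runs differed by at most 1.31 times in the other 3. The mean at P0 was 438 ± 199 TPM (SD, n = 2). Only the steps from E10 to E17 and from P3 to P28, in order of level, were free of overlap, and the ratio of E10 to P28 was 295 in run 1 and 39.3 in run 2.

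miR-92b also has the AUUGCAC seed. Its levels in run 1 and run 2 were 3331 and 6591 TPM at E10, 2996 and 1330 at E13, 1866 and 488 at E17, 337 and 181 in P0 replicate 1, 150 and 132 in P0 replicate 2, 240 and 158 at P3, 196 and 176 at P7, 257 and 287 at P14, and 444 and 304 at P28. At P28 the level was 1.87 times that at P0 (1.82 times in run 1 and 1.95 times in run 2), where the other 4 stood at 0.0753 to 0.228 of their P0 level. Scaled by TMM factors it was 1.32 times, and the other 4 were at 0.0602 to 0.146. As means of the runs, P28 was at 374 TPM and the P0 replicates were at 259 and 141 TPM, and run 2 of P28 lay below run 1 of P0 replicate 1. The libraries of P28 lay above those of P14 without overlap, while those of P14, P0, P3 and P7 overlapped with their neighbours in order of level. The mean at P0 was 200 ± 83.5 TPM (SD, n = 2).

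**Figure D2:**
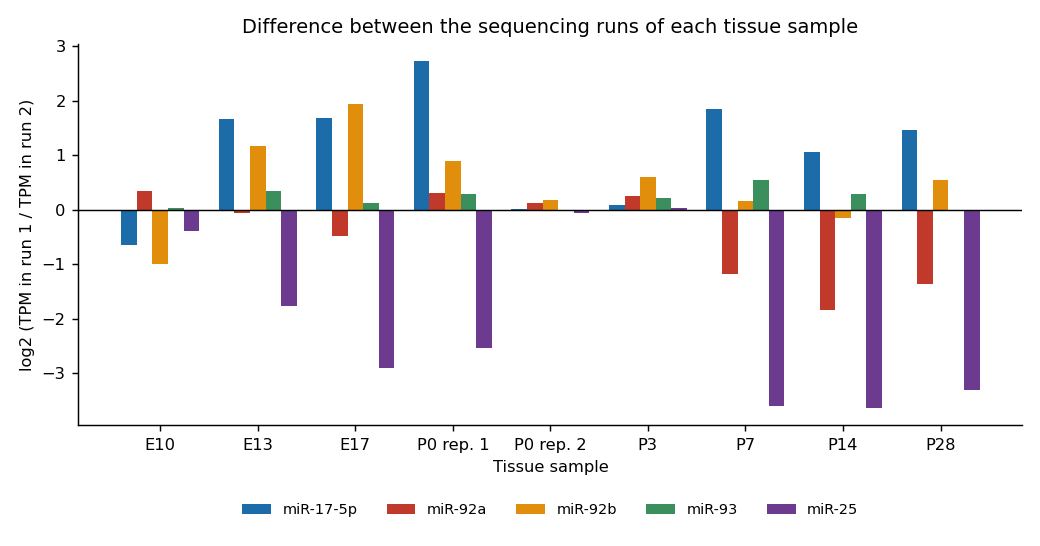
Log2 ratio of the level in run 1 to the level in run 2 for each of the 5 miRNAs in the 9 tissue samples; bars above 0 are higher in run 1. miR-17-5p is higher in run 1 and miR-25 lower in run 1 in the 6 tissue samples E13, E17, P0 replicate 1, P7, P14 and P28, where miR-25 differs by 3.38 to 12.4 times.

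The order of the 5 also changed with stage and run. miR-92a led in 12 libraries, miR-92b in 4, and miR-17-5p and miR-93 in 1 each. The share of the summed level of the 5 that was miR-92b was 22.5% at E10, 5.92% to 7.85% in the P0 tissue samples and 47.3% at P28. At P28 this share was 62.1% in run 1 and 35.0% in run 2, and miR-92a held 35.3% in run 2. For miR-93 the share was between 9.24% at P28 and 28.2% in P0 replicate 1. The 5 together stood at 22038 TPM at E10 and, at P28, at 791 TPM.

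Whether each miRNA followed a trend over development was tested with edgeR on the counts of 556 named sequences that reached 10 counts in 2 or more tissue samples, with the slope per stage over 8 stages and 9 tissue samples. All 5 members passed this filter and all 5 fell. The fitted slope of log2 count per stage was −0.73 (SE 0.15, adjusted p = 0.00184) for miR-17-5p, −0.75 (SE 0.14, adjusted p = 0.000944) for miR-93, −0.68 (SE 0.11, adjusted p = 0.000452) for miR-92a, −0.75 (SE 0.13, adjusted p = 0.000717) for miR-25 and −0.46 (SE 0.11, adjusted p = 0.00516) for miR-92b. In this test 45.1% of all sequences passed, and 29.0% fell. The median slope over all 556 was −0.11. Of the sequences that passed, 64.1% fell, and 80.0% did so when the counts were scaled by clean reads alone. With 1 tissue sample at 7 of the 8 stages, these p-values measure the scatter of the samples about a line.

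The trend was then divided at birth. From E10 to P0, miR-92b was the member that fell past the threshold, with a slope of −1.15 (SE 0.23, edgeR adjusted p = 0.00365), where 16.2% of all sequences fell and 10.4% rose. The slopes of the other 4 over these stages lay between −0.59 (SE 0.25, adjusted p = 0.103) for miR-25 and −0.14 (SE 0.22, adjusted p = 0.666) for miR-17-5p. Without the 6 libraries of run 1, miR-92a passed as well (−0.63, SE 0.21, adjusted p = 0.0420), and it also did without run 2 of E10 (−0.70, SE 0.19, adjusted p = 0.0187).

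From P0 to P28 the other 4 fell. The slopes of miR-17-5p (−1.04, SE 0.17, adjusted p = 0.000954), miR-93 (−1.04, SE 0.17, adjusted p = 0.000903), miR-25 (−0.85, SE 0.20, adjusted p = 0.00899) and miR-92a (−0.75, SE 0.17, adjusted p = 0.00635) passed in the edgeR fit, where 16.0% of all sequences fell. The slope of miR-92b was −0.05 (SE 0.16, adjusted p = 0.837), and without the 6 libraries of run 1 it was 0.05 (SE 0.11, adjusted p = 0.714).

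A direct test of the change of slope at birth did not pass for any of the 5, where 7.91% of all sequences passed (44 of 556, with 150 at an unadjusted p under 0.05). The change was 1.10 per stage upward for miR-92b (SE 0.35, edgeR adjusted p = 0.0663), where 3.6% of all sequences passed upward, and it was downward for miR-17-5p (−0.90, SE 0.33, adjusted p = 0.0949) and miR-93 (−0.80, SE 0.31, adjusted p = 0.109). For miR-17-5p and miR-93 in that order, the change was −0.30 and −0.10 without normalization, and −0.33 and 0.49 when only identical tags were counted. For miR-92a and miR-25 the changes were −0.20 (SE 0.34) and −0.26 (SE 0.38). Of the 5, miR-17-5p, miR-92b and miR-93 had an unadjusted p under 0.05, and with DESeq2 miR-92b alone passed. The value for miR-92b lay near the threshold. It was 1.20 (adjusted p = 0.00602) without the 6 libraries of run 1, it passed without E10 or without E17, and without run 2 of E10 it was 1.09 (adjusted p = 0.0512), and over 23 ways of processing it was upward in 23 and passed in 12, with adjusted p from 0.00476 to 0.368.

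Ratios between members within a library need no library size, so they were used to compare the courses of the miRNAs with each other. Over all 9 tissue samples, the slope of the log2 ratio passed for 0 of the 10 pairs (exact permutation test over tissue samples, two-sided, lowest adjusted p = 0.764 over the 10 pairs, lowest unadjusted p = 0.150), and for 0 without run 2 of E10 (lowest adjusted p = 0.504). The courses of 2 of the ratios with miR-92b are given here. The counts of miR-92b divided by those of miR-93 were 1.54 at E10, 1.09 at E13, 0.933 at E17, 0.258 and 0.283 in the P0 replicates, 0.426 at P3, 1.49 at P7, 2.61 at P14 and 4.88 at P28. By run this ratio was 0.961 and 1.93 at E10, 1.46 and 0.825 at E13, 1.60 and 0.454 at E17, and 6.12 and 4.14 at P28, so whether miR-92b or miR-93 had more reads before birth depended on the run. The counts of miR-92a divided by those of miR-92b, which differ at a single base of their first 20, were 1.27 at E10, 2.85 at E13, 2.50 at E17, 3.61 and 7.08 in the P0 replicates, 2.94 at P3, 1.59 at P7, 1.27 at P14 and 0.660 at P28. By run this ratio was 2.31 and 0.922 at E10, 1.79 and 4.17 at E13, 1.12 and 5.97 at E17, 0.795 and 2.02 at P7, 0.457 and 1.49 at P14, and 0.268 and 1.01 at P28. Without its run 1 library the P28 ratio was thus not below 1.

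**Figure D3:**
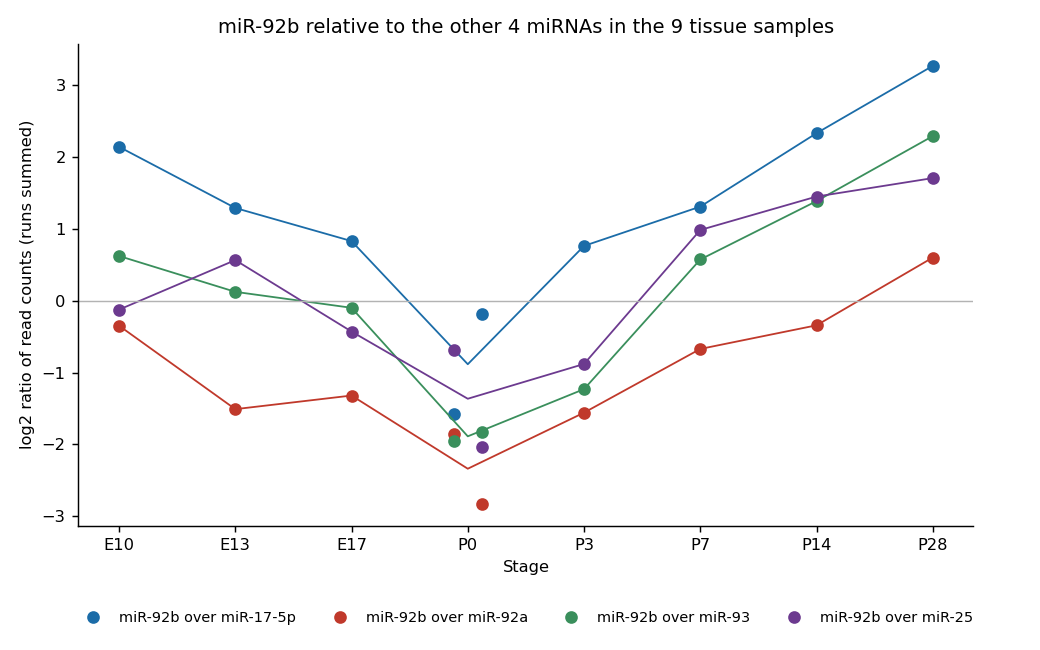
Log2 ratio of the read counts of miR-92b to those of each of the other 4 miRNAs in the 9 tissue samples (points, runs summed, P0 replicates side by side), with lines through the stage means. The stage means of the 4 ratios are lowest at P0 and highest at P28, where miR-92b has 4.88 times the reads of miR-93.

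The ratios were then fitted over the 6 tissue samples from P0 to P28 alone, a choice made with the values in view. The ratio of miR-92b to miR-93 rose by 1.09 log2 units per stage (SE 0.07, exact permutation p = 0.00278, the smallest that these samples allow, adjusted p = 0.0185 over the 10 pairs). It rose by 1.04 in run 1 and by 1.11 in run 2. The ratio of miR-17-5p to miR-92b changed by −1.02 (SE 0.15, exact permutation, adjusted p = 0.0185), of miR-92a to miR-92b by −0.72 (SE 0.10, exact permutation, adjusted p = 0.0185) and of miR-92b to miR-25 by 0.85 (SE 0.18, exact permutation, adjusted p = 0.0417). Within run 1 the ratios with miR-17-5p and miR-25 did not pass (exact permutation, adjusted p = 0.0741 and 0.153), and within run 2 all 4 did. Without the 6 libraries of run 1 all 4 passed (exact permutation, adjusted p from 0.0139 to 0.0278). Of the 6 pairs without miR-92b, none passed over these samples (exact permutation, lowest adjusted p = 0.106), but within run 2 and without the 6 libraries of run 1 the ratio of miR-17-5p to miR-92a did (exact permutation, adjusted p = 0.0333 and 0.0444).

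Grouped by seed, the miRNAs with AUUGCAC (miR-92a, miR-92b and miR-25) summed to 17459 TPM at E10 and at P28 to 677 TPM, and those with AAAGUGC (miR-17-5p and miR-93) to 4579 and 115 TPM. The level of the AUUGCAC group divided by that of the AAAGUGC group was 3.81 at E10, 3.18 at E13, 2.76 at E17, 0.760 and 2.63 in the P0 replicates, 1.97 at P3, 2.30 at P7, 3.41 at P14 and 5.90 at P28. In run 1 and run 2 the ratio was 1.96 and 4.01 at E17, 0.521 and 1.35 in P0 replicate 1, 1.22 and 4.50 at P7, 1.81 and 5.78 at P14, and 4.32 and 8.14 at P28, so that run 2 gave the higher ratio in these 5 tissue samples. The slope of the log2 ratio was 0.10 per stage (SE 0.13), given without a test. The cluster mates with these seeds were then added to the sums, miR-20a, miR-20b and miR-106b for AAAGUGC and miR-363 for AUUGCAC. The members held 67.1% to 80.2% of the AAAGUGC sum of members and mates and 91.5% to 99.9% of the AUUGCAC sum. Any other sequences with these seeds were not added, so these are not shares of all reads with a seed.

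The cluster mates and the other arms of the hairpins were fitted in the same way. Of 22 such sequences looked for, 21 had reads, miR-19b-2-5p having none, and 20 passed the filter on counts. The slopes of 18 of the 20 were negative and past the threshold (edgeR, adjusted p under 0.05, against 29.0% of all sequences). This count is not read as support for a shared decline, because a sequence can pass the filter through early stages alone. miR-18a-3p, miR-19a-5p and miR-363-5p had no tag seen in both runs at P7, P14 or P28, and miR-20b-5p had none at P3, P14 or P28. Such tags were also missing for miR-20a-3p at P7 and P28, for miR-19a-3p at P14, for miR-20b-3p at P28, and for miR-19b-1-5p at E13 and from P3 on. The exceptions were miR-19b-3p (−0.59, SE 0.26, adjusted p = 0.0743), which is encoded on chromosomes 15 and X, and miR-19b-1-5p (−0.48, SE 0.25, adjusted p = 0.133). The level of miR-19b-3p in P0 replicate 1 was 905 TPM in run 1 and 46.2 TPM in run 2. Without the 6 libraries of run 1, miR-19b-3p fell too (−0.41, SE 0.10, adjusted p = 0.00708), and miR-19b-1-5p did not pass the filter.

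Within the miR-106b-25 cluster the slopes were −0.67 (SE 0.15) for miR-106b, −0.64 (SE 0.11) for miR-106b-3p, −0.75 (SE 0.11) for miR-93-3p and −0.45 (SE 0.14) for miR-25-5p. In the miR-17-92 cluster they ran from −1.02 (SE 0.12) for miR-18a-3p to −0.48 for miR-19b-1-5p, which had 68 reads in all libraries together, and miR-20a-5p, which has the AAAGUGC seed, was at −0.78 (SE 0.16). The X cluster gave the 4 lowest values, with miR-20b-3p at −1.26 (SE 0.12), miR-363-3p at −1.22 (SE 0.15), miR-20b-5p at −1.21 (SE 0.12) and miR-363-5p at −1.15 (SE 0.18). miR-17-2-3p, the other X cluster sequence tested, was at −0.92 (SE 0.13), within the range of the miR-17-92 cluster. This held without miR-18a-3p too, since miR-92a-1-5p, which had tags in every tissue sample, was at −0.96 (SE 0.13). Of the sequences in this paragraph, miR-18a-3p, miR-19b-1-5p, miR-20b-5p, miR-363-5p and miR-20b-3p had the empty late stages named above. Their slopes, and the range of the miR-17-92 cluster, are given as a description. The difference between clusters was not tested. The 3p arm of miR-20b was the more abundant one at E10 (177 TPM against 46.1 TPM), at E13 (41.0 TPM against 10.7 TPM) and at E17 (14.1 TPM against 3.35 TPM).

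**Figure D4:**
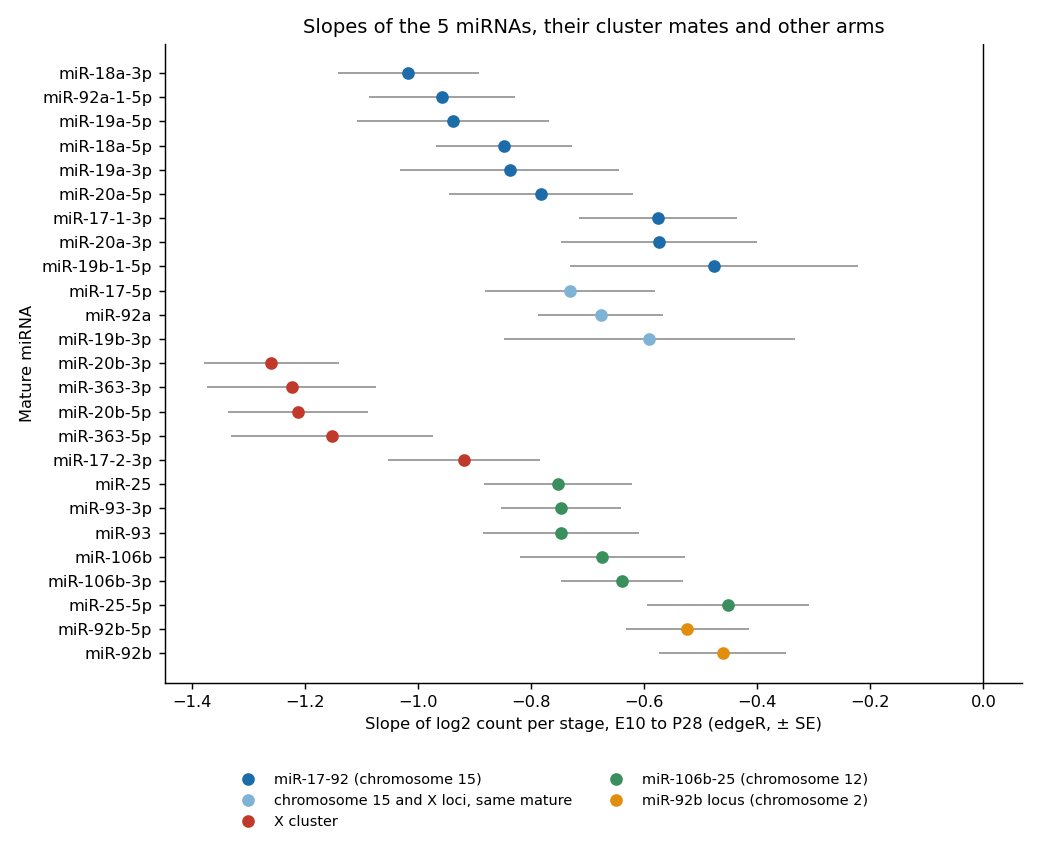
Fitted slope of log2 count per stage from E10 to P28 (edgeR, points, with bars of 1 SE) for the 5 miRNAs and the 20 cluster mates and other arms tested, coloured by locus; sequences could enter through early stages alone. All 25 lie below 0, the 4 arms of miR-20b and miR-363 from the X cluster lie lowest, and miR-25-5p, miR-92b and miR-19b-1-5p, the last with 68 reads in all, lie nearest to 0.

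The other arms also differ between the loci that share a mature sequence, so they show which hairpins gave reads. The sequences that tell the loci apart are given here with bases 2 to 8 in capitals.
miR-17-1-3p (chromosome 15): aCUGCAGUgaaggcacuugugg
miR-17-2-3p (chromosome X): aCUGCACUgcaagcacuucuuac
miR-92a-1-5p (chromosome 15): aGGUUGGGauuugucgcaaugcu
miR-92a-2-5p (chromosome X): aGGUGGGGauuagugccauuac

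For miR-17, both loci gave reads. At E10 the X chromosome form had 4826 of 7117 reads of the other arm (67.8%, 95% exact binomial interval 66.7% to 68.9%), and at P28 it had 22 of 102 (21.6%, interval 14.0% to 30.8%). Between them the share was 64.7% at E13, 49.8% at E17, 15.1% and 50.3% in the P0 replicates, 49.3% at P3, 21.8% at P7 and 39.7% at P14, with no steady order. Runs did not give the same ratio, however. At E10 the chromosome 15 form was at 0.260 of the X form in run 1 and at 1.01 in run 2, at E17 the values were 8.28 and 0.362, and at P28 they were 44.0 and 1.71. These intervals cover counting error only, and the spread between runs was far wider.

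For miR-92a, the other arm came almost wholly from chromosome 15. At E10, 12554 reads were of miR-92a-1-5p and 19 of miR-92a-2-5p (0.151%, 95% exact binomial interval 0.0910% to 0.236%), and at E13 the counts were 1672 and 5. From E17 on, no read of miR-92a-2-5p was found, which allows a share of up to 0.242% at E17 (0 of 1242 reads) and up to 6.25% at P28 (0 of 48 reads). The level of miR-92a-1-5p was 441 TPM at E10 and 1.43 TPM at P28. What share of mature miR-92a came from each locus was not measured by this, since the arms of a hairpin need not be kept in the same proportion.

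At the miR-92b locus, the other arm, miR-92b-5p, stood at 528 and 2335 TPM at E10 (run 1 and run 2), 218 and 633 at E13, 167 and 126 at E17, 21.5 and 51.6 in P0 replicate 1, 36.6 and 95.6 in P0 replicate 2, 43.8 and 66.3 at P3, 9.30 and 38.7 at P7, 20.6 and 99.7 at P14, and 29.8 and 66.1 at P28. At P28 it was at 0.934 of its P0 mean, where miR-92b was at 1.87 times, and with TMM factors the values were 0.566 and 1.32. Its slope was −1.05 (SE 0.22, edgeR adjusted p = 0.00436) from E10 to P0 and −0.16 (SE 0.17, adjusted p = 0.459) from P0 to P28. The change of slope was 0.89 (SE 0.34, adjusted p = 0.107), and it passed without the 6 libraries of run 1 (1.05, SE 0.29, adjusted p = 0.0360). The 3p arm, miR-92b, had 1.92 to 7.24 times the reads of the 5p arm in the tissue samples. By library the ratio was 1.33 (run 2 of P0 replicate 2) to 20.6 (run 1 of P7).

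Of the chromosome 12 hairpins, miR-93 had 130 to 449 times the reads of miR-93-3p in every tissue sample. By library this ratio was 90.8 (run 2 of E10) to 559.5 (run 1 of P7). miR-25 had 2.66 to 16.3 times the reads of miR-25-5p at E10, E13 and E17, 1.76 to 2.98 times at P0 and P3, and 1.40 to 1.61 times at P7, P14 and P28. In the 6 libraries of run 1 that stood apart, miR-25-5p was the more abundant arm, with miR-25 at 0.143 to 0.945 of it. In the other 12 libraries miR-25 was 1.93 to 17.1 times miR-25-5p. In these 6 tissue samples the more abundant arm of the miR-25 hairpin therefore differed between the runs.

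The ends of the tags were examined since they decide what is counted for each miRNA. The 5′ end, which sets the seed, was the annotated end in 86.8% to 99.5% of the reads over the 5 miRNAs and 17 libraries, with run 2 of E10 within this range (94.8% to 98.3%). miR-25 had the most reads that began 1 nt inside the annotated end, with a median of 7.34% and a range of 1.81% to 13.0%, and such reads carry a shifted seed.

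The 3′ ends differed between the miRNAs. The most frequent tag of each, over the 17 libraries other than run 2 of E10, shows where the reads ended.
miR-17-5p, 31.1% of reads: cAAAGUGCuuacagugcag
miR-92a, 85.0% of reads: uAUUGCACuugucccggccu
miR-92b, 34.1% of reads: uAUUGCACucgucccggccu
miR-93, 36.0% of reads: cAAAGUGCuguucgugcaggua
miR-25, 43.5% of reads: cAUUGCACuugucucggucu

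With run 2 of E10 included, the full annotated sequence was instead the most frequent tag of miR-17-5p (28.6% of reads), miR-92b (22.5%) and miR-25 (44.7%). For miR-92a the most frequent tag was 1 nt shorter than the annotated sequence, and the median share of reads that ended at that base was 86.7% over the 17 libraries other than run 2 of E10 (84.7% to 89.2%). For miR-92b reads ended most often 2 nt short, with a median of 39.1% (25.8% to 46.0%), and miR-25 likewise (40.6%, 26.5% to 54.4%). Run 2 of E10 gave a different distribution for all 5. Reads that started at the annotated 5′ end and ended before the 3′ end made up 10.1% for miR-17-5p, 0.738% for miR-92a, 14.4% for miR-92b, 5.51% for miR-93 and 5.92% for miR-25 in that library. In the other 17 libraries they made up 53.3% to 99.1%, 94.0% to 99.3%, 46.4% to 76.9%, 89.6% to 99.5% and 70.6% to 89.8%, in the same order. The difference between the runs of E10 arose from the same tissue sample, and its cause was not tested.

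**Figure D5:**
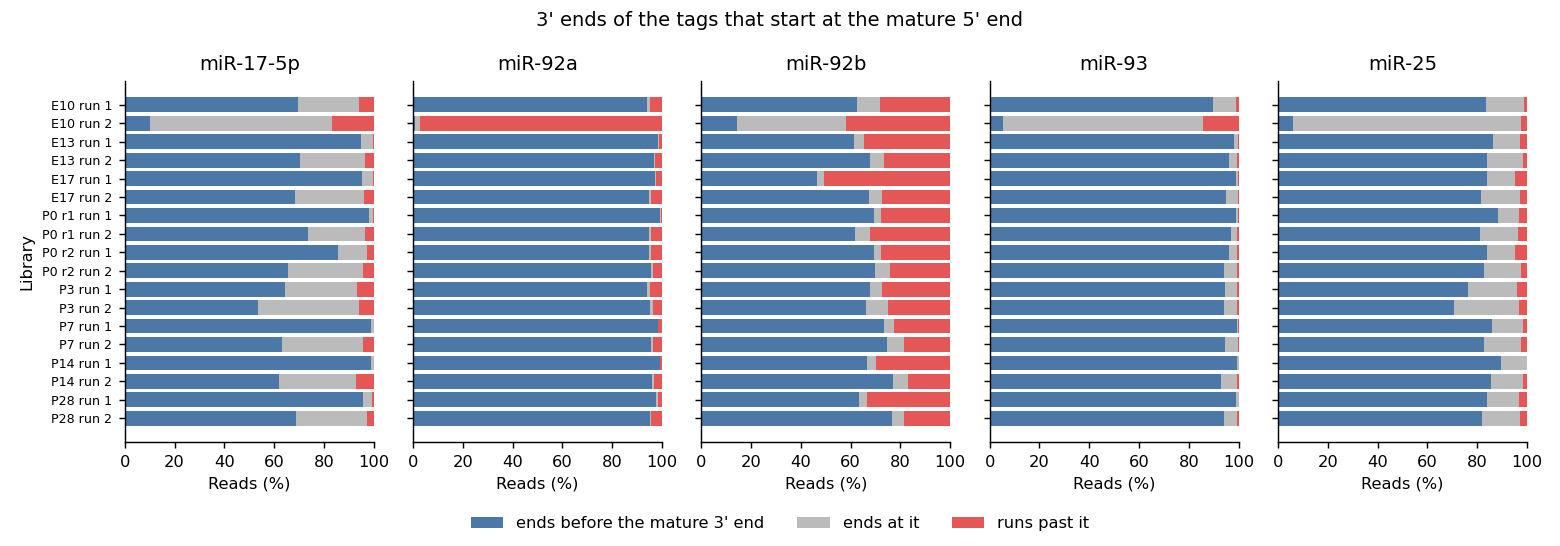
Share of the reads that start at the mature 5′ end and end before it (blue), at it (grey) or past (red) the mature 3′ end, for each of the 5 miRNAs in the 18 libraries. Run 2 of E10 stands apart in all 5, with 0.738% of miR-92a reads shortened, and miR-92b has the widest red bars of the 5 in the other libraries.

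Of the 5, miR-92b carried the most 3′ extensions outside run 2 of E10. Over the 17 libraries, 31.1% of its reads with the annotated 5′ end ran 1 to 3 nt past the 3′ end, against 3.50% for miR-92a, 2.41% for miR-17-5p, 2.15% for miR-25 and 0.569% for miR-93. The median over 225 named sequences was 10.5%, and 65 of them had a higher share than miR-92b. Of the extended miR-92b reads, 0.140% matched the hairpin, where the next base is G. Among reads extended by 1 nt, the added base was A in 51.5% and U in 47.2%. For miR-92a the added base was U in 95.9%, which is also the next base of the Mir92a1 hairpin (the Mir92a2 hairpin has A). Of all its reads extended by 1 to 3 nt, 35.3% matched a hairpin. These values are from the 17 libraries. In run 2 of E10, 97.3% of miR-92a reads and 41.8% of miR-92b reads with the annotated 5′ end were extended. Over all 18 libraries the shares were 25.4% and 35.9%.

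Some reads began like a member but were left out by the counting rule. Reads identical to miR-92b over its first 18 nt that were not counted made up 22.1% of all reads with those bases (12.2% to 35.4% in the 17 libraries), and 95.0% of them ended in A or U. The corresponding shares were 6.09% for miR-17-5p, 4.53% for miR-93, 2.03% for miR-25 and 1.48% for miR-92a. For miR-92b the lowest share was in run 2 of P14 and the highest in run 1 of E17.

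The share of shortened reads of miR-92b was 26.6% at E10, 64.0% at E13, 52.3% at E17, 65.2% and 69.6% in the P0 replicates, 67.1% at P3, 74.2% at P7, 74.7% at P14 and 70.4% at P28. The slope was 4.98 percentage points per stage (SE 1.62, Pearson's r = 0.758 with exact permutation p = 0.00605, Spearman's rho = 0.904 with exact permutation p = 0.00160). After adjustment over 225 sequences it did not pass (exact permutation, adjusted p = 0.0602), where 6.22% of the sequences did. The median slope over the 225 was itself 2.58 points per stage, and 73 of them had an unadjusted p under 0.05. With E10 and P28 left out, r was 0.755 (exact permutation p = 0.0456). Without run 2 of E10 the slope was 2.04 points per stage (exact permutation p = 0.0381), with an adjusted p of 0.203, where 5.05% of 218 sequences passed. The median slope of these 218 was 0.528 points, and 46 had an unadjusted p under 0.05. For the other 4 miRNAs the adjusted p lay between 0.231 and 0.322 (exact permutation).

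The named sequences most alike in course to each member were found by Pearson's r of log2 (TPM + 1) over the 9 tissue samples, among 179 sequences with a mean above 50 TPM that are outside the clusters. This is a description without a test, and the samples share their depth and run. For miR-17-5p they were miR-130b (r = 0.967), miR-130a (0.966) and miR-135b-5p (0.963). For miR-92a they were miR-219a-1-3p (0.986), miR-181a-2-3p (0.984) and miR-130b (0.956). For miR-93 they were miR-3099 (0.954), miR-130b (0.951) and miR-219a-1-3p (0.940), and for miR-25 they were miR-219a-1-3p (0.974), miR-3099 (0.943) and miR-301b (0.942). The nearest to miR-92b were other names, miR-26b-5p (0.976), miR-186-5p (0.927) and miR-505-5p (0.919), and miR-26b-5p stood at 1836 TPM at E10 and, at P28, at 509 TPM. Among the members themselves, r was 0.691 to 0.832 for the 4 pairs with miR-92b and 0.820 to 0.959 for the 6 pairs without it.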

How the data were processed

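The deposited files list, for 1 library each, every distinct clean tag with its raw read count, which the authors made by trimming adaptors and discarding poor or contaminant reads. The authors' aligner was not used here. Tags of 18 nt and longer were assigned to 781 named sequences, which were those the study gives plus rat mature miRNAs of RefSeq (GRCr8). TPM was computed from tags seen in both runs and the total clean reads of each library. Counts of both runs were summed per tissue sample and fitted with edgeR 4.0.16 in R 4.3.3 (limma 3.58.1, TMM factors from 0.559 for P0 replicate 2 to 2.00 for E10, quasi-likelihood test, Benjamini-Hochberg adjustment over 556 sequences, threshold 0.05). DESeq2 1.42.0 was an alternative. Log2 ratios of members used a pseudocount of 0.5 and exact permutation of 9 tissue samples. The share of shortened reads was tested in 225 sequences with at least 100 reads at the mature 5′ end in every tissue sample. Other steps were run in Python 3.11.15 (scipy 1.17.1, pandas 2.3.3, numpy 2.4.6, matplotlib 3.10.9). Scripts were tested on simulated counts.

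The members and the lists of cluster mates were chosen with earlier results of these data known. Every member, cluster mate and other arm with a sequence was named by rule, and of the alike sequences the 3 with the highest r. Leaving out the 6 run 1 libraries or run 2 of E10, scaling levels by TMM factors, and fitting the ratios over P0 to P28, were chosen after seeing the data. Runs are technical repeats of 1 tissue sample and share its number by label, so they were paired by construction. P-values measure the spread between these samples only, and all intervals cover counting error only, since reads carry no molecular identifiers.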

Additional observations from a re-analysis of the deposited data

How the results depend on the processing

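The levels in TPM depend on which tags are counted. Of the miR-17-5p reads with the annotated 5′ end, the full annotated sequence made up 24.7% and 73.0% at E10 in run 1 and run 2. At E13 it made up 4.60% and 26.2%. The slopes of the 5 miRNAs on stage kept their direction in each of 24 ways of processing. They passed in all 24 for miR-17-5p, miR-92a, miR-93 and miR-25, and in 23 for miR-92b, which had −0.28 (adjusted p = 0.145) from E17 to P28 alone. The number of sequences with a slope past the threshold, 251, was 124 in run 1 alone, 133 with at least 100 counts in 5 tissue samples, 71 without the sequences added from RefSeq, and 167 to 265 when each tissue sample was left out (167 without P28).

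The change of slope at birth depended more on the processing. The number of sequences past the threshold, 44, was 2 in run 1 alone, 69 in run 2 alone, 132 without normalization, 15 without the RefSeq additions, 120 with a replicate block over 18 libraries, 100 with DESeq2 and 14 to 67 when each tissue sample was left out. For miR-92b it passed at 1.27 in run 2 alone, 1.88 with identical tags, 1.12 with an exact 5′ end, 1.20 with tags seen in both runs, 1.81 without normalization, 1.16 with at least 100 counts, 1.24 without the RefSeq additions, 1.12 with the replicate block, 1.16 with DESeq2 and 1.20 without the 6 libraries of run 1, and it ranged from 0.88 to 1.41 when each tissue sample was left out. The replicate block treats technical repeats as separate libraries, so its p-values are too small. Under it miR-17-5p (−0.82) and miR-93 (−0.72) passed. The direction turned for miR-93 with identical tags (0.49), for miR-25 with identical tags (0.35) and without normalization (0.51), and for miR-92a without normalization (0.57), without run 2 of E10 (0.0212) and without E10 (range −0.41 to 0.14).

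For the ratios over all 9 tissue samples, the direction turned for miR-17-5p over miR-92a in run 1 (0.28) and with the replicate block of both runs (0.0807), without run 2 of E10 (0.0293), with −0.0693 to 0.0326 when each sample was left out. It turned for miR-17-5p over miR-25 in run 2 (−0.00035) and from P0 to P28 (−0.17), with −0.0705 to 0.163. It turned for miR-92a over miR-93 in run 1 (−0.15) and with the replicate block (−0.0081), for miR-92a over miR-25 only when E10 was left out (−0.0044 to 0.17), and for miR-93 over miR-25 in run 2 (−0.0202), with identical tags (−0.0607), without the 6 libraries (−0.0317), without run 2 of E10 (−0.0111) and from P0 to P28 (−0.234), with −0.0952 to 0.109. From P0 to P28 alone, a span chosen with the values in view, the ratios with miR-92b passed (−1.02 for miR-17-5p, −0.72 for miR-92a, 1.09 against miR-93 and 0.85 against miR-25). The share of shortened miR-92b reads passed in run 2 alone (5.94 points per stage) and without E17, with 2.44 to 6.41 when each sample was left out. For miR-25 its slope turned without run 2 of E10 (−0.13). It turned without E10 for miR-17-5p (−0.78 to 5.34), miR-92a (−0.13 to 5.54) and miR-93 (−0.24 to 5.86). The cause of these changes was not tested. With 1 tissue sample at 7 of 8 stages, a spread between tissue samples was measured at P0 alone.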
